A study of Mus musculus with 2 samples.

Results

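The genes described here encode sensors of foreign or misplaced nucleic acid together with the adaptors and the kinase directly below them. There are 10 of them (Ddx58, Ifih1, Dhx58, Tlr3, Eif2ak2, Mb21d1, Zbp1, Mavs, Tmem173 and Tbk1), chosen by name, out of 19938 genes that a probe set names alone. The array annotation lists Mb21d1 as Cgas and Tmem173 as Sting1. They were measured in mouse embryonic fibroblasts, connective tissue cells cultured from embryos, on 1 Affymetrix array for a culture given the solvent DMSO and 1 for a culture given 250 nM celastrol, a plant triterpenoid of the quinone methide class. Both cultures carried an adenovirus expressing LacZ, a bacterial enzyme gene used as control cargo, and both were kept for 7 h in DMEM with 1% serum (FBS). No array of uninfected cells was analysed here, so every value below is from vector-carrying cells, and the part of the vector in them was not tested. With 1 array per group there is no replicate, no error and no p-value, and the treatment cannot be told apart from the culture or the array.

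Cells recognise viral infection in part by nucleic acid found in the wrong place. RIG-I (Ddx58) and MDA5 (Ifih1) bind double-stranded RNA in the cytosol and signal through MAVS on mitochondria, while LGP2 (Dhx58) lacks the signalling domain and modulates the other two. TLR3 reads double-stranded RNA in endosomes rather than the cytosol, and PKR (Eif2ak2) phosphorylates eIF2 on binding it. DNA in the cytosol, adenoviral genomes included, is read by cGAS (Mb21d1), which signals through STING (Tmem173), and ZBP1 binds nucleic acid in the Z form. The MAVS, STING and TLR3 routes converge on the kinase TBK1 and induce type I interferon, which raises many of the sensor transcripts in turn.

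The sensor genes showed no common direction. Ddx58 was 1.71-fold lower with celastrol, Dhx58 was 1.44-fold higher and Tbk1 1.39-fold higher, and the remaining detected genes differed by at most 1.27-fold. A gene was called detected where either array gave a value over 5.73 on the log2 scale. This limit is the 95th percentile of the values of 1210 probe sets that name chemosensory (olfactory or vomeronasal) receptor genes, taken as silent in fibroblasts. By that limit 9 of the 10 genes were detected, all 9 in both arrays, and Ifih1 was not. Of all 19938 genes, 13899 were detected. With the limit at the median of all probe sets (6.34) Tmem173 and Zbp1 also lay under it, which left 7. Each of the 10 genes had 1 probe set, so no second probe set was available as a check on any of them.

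**Figure D1:**
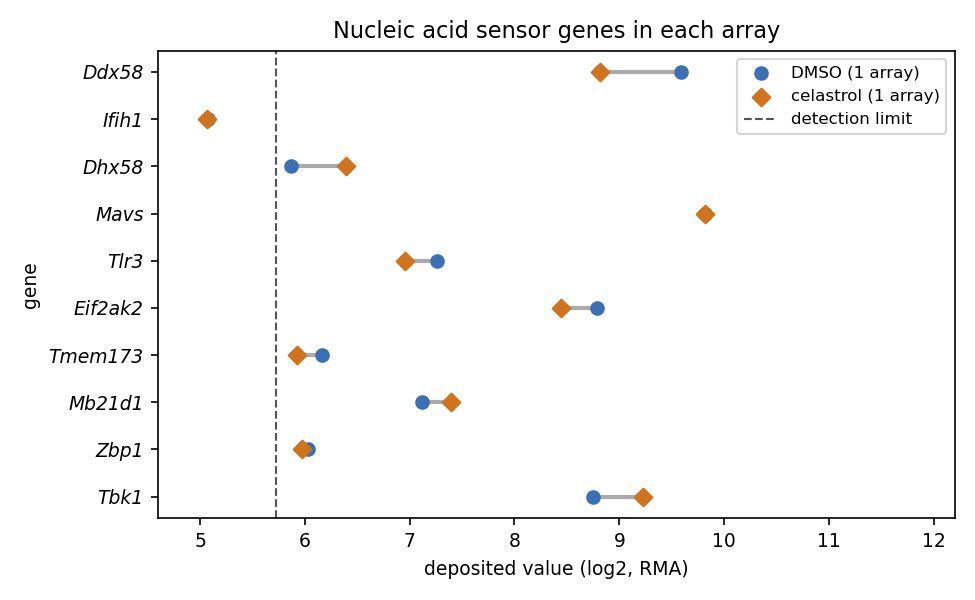
Deposited log2 value (horizontal axis) of each of the 10 sensor genes (vertical axis) in the DMSO array (circles) and the celastrol array (diamonds), 1 array each, with the detection limit of 5.73 as a dashed line. Ddx58 has the widest gap, from 9.59 with DMSO to 8.82 with celastrol, Dhx58 and Tbk1 move the other way, and Ifih1 lies under the limit in both arrays. Distances between genes are not comparable, because each probe set has its own response.

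Among the RIG-I-like receptors, the 2 detected genes differed in opposite directions. Ddx58, the RNA sensor RIG-I (probe set 10512067), stood at 9.59 with DMSO and 8.82 with celastrol, a difference of -0.77 on the log2 scale. Both of its values lay at least 3.09 log2 units above the detection limit, and its difference ranked 260 from the lowest among the 13899 detected genes. Dhx58, the regulatory receptor LGP2 (probe set 10391207), stood at 5.86 with DMSO and 6.39 with celastrol, a difference of 0.52. Its DMSO value was only 0.14 above the limit, where the summary method (RMA) tends to compress differences, and its rank was 1040 from the highest. Ifih1, which encodes MDA5 (probe set 10483110), stood at 5.08 and 5.06, both under the limit, so no fold is given for it.

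The upstream promoter sequences are shown for Ddx58 and Tbk1, the well-detected genes with the largest differences in each direction. Both are from the RefSeq promoter table for GRCm38.p6, are given 5′ to 3′ on the strand of the gene, and run over the 250 bases before the start site, at chr4:40239826-40240075 (minus strand) and chr10:121586795-121587044 (minus strand). Capitals mark a match to one of 3 motifs searched on both strands in the window from 250 bases before to 50 after the start: GAAA and GAAA with any 2 bases between, the core of the interferon-stimulated response element, the same repeat with any 1 base between, and GGGA and TTTCC with any 1 base between, an NF-kB motif. On the other strand these read TTTC and TTTC, or GGAAA and TCCC, with the same gaps.
Ddx58: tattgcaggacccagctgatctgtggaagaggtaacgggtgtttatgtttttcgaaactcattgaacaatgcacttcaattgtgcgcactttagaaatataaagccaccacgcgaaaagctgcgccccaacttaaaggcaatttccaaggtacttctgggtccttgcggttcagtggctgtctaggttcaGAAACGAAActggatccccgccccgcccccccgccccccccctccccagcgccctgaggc
Tbk1: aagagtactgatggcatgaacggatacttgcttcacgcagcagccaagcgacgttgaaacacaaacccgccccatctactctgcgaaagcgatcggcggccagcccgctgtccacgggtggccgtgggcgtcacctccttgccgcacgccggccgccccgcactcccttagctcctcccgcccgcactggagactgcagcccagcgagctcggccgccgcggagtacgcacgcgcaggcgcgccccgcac
The repeat with 1 base between was added after the sequences had been seen. In the Ddx58 window it matched at position -60 from the start site (chr4:40239877-40239885), and the response element core matched, in reverse, at position 3 after it (chr4:40239814-40239823). No letters of the 3 motifs were in the Tbk1 window, whose upstream part holds 68.4% G and C against 53.6% for Ddx58.

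Windows were taken from that promoter table for 7 of the 10 genes, and 4 of these windows held a motif. No window was taken for Dhx58, Tmem173 and Zbp1, so their promoters were not searched. Promoters on 1 chromosome were left out for the sensor genes but kept in the shares over all promoters given below. The short stretches below show where the response element core and the NF-kB letters lie, in capitals, in the RNA sensor genes that hold them. They are given on the strand of the gene, which is the minus strand for all 4, and lie at chr4:40239804-40239833, chr2:62646206-62646233, chr17:78882535-78882564 and chr8:45410572-45410601.
Ddx58: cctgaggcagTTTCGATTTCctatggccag
Ifih1: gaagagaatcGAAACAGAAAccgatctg
Eif2ak2: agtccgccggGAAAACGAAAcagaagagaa
Tlr3: agttgtttctGGGAGTTTCCtgcttttgag
The response element core was in 3 of the 7 windows, those of Ddx58, Ifih1 and Eif2ak2, and in 3.44% of all 32851 promoters in the table. The 1-base repeat was in 3.17% of them and the NF-kB letters, found in Tlr3 at position -211, in 0.411%. No match overlapped another in these windows. Of the 3 genes with the core, Ddx58 (-0.77) and Eif2ak2 (-0.35) were both lower with celastrol, the latter within the scatter range given below. Ifih1 was not detected, and 51.9% of all detected genes were lower. Of the windows without the core, that of Tlr3 belongs to a gene also lower (-0.31). Mavs differed by -0.004, Mb21d1 by 0.28 and Tbk1 by 0.48. Dhx58, with a difference of 0.52, was not searched. A link between the motif and the differences was not tested.

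Both other receptors of double-stranded RNA were slightly lower. Eif2ak2, the eIF2 kinase PKR (probe set 10452980), stood at 8.79 with DMSO and 8.45 with celastrol, a difference of -0.35 or 1.27-fold. Tlr3, the endosomal receptor (probe set 10578493), stood at 7.27 and 6.95, a difference of -0.31 or 1.24-fold. For scatter within these arrays, differences of the chemosensory receptor probe sets were used, of which the central 95% ran from -0.42 to 0.41. The differences of Eif2ak2 and Tlr3 lay within that range while that of Ddx58 lay outside it. The range was taken from dim probe sets and holds no variation between cultures, so it is no error of a sensor gene.

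The DNA branch differed little. Mb21d1, which encodes the DNA sensor cGAS (probe set 10595171), stood at 7.12 with DMSO and 7.39 with celastrol, a difference of 0.28 or 1.21-fold. Tmem173, which encodes its adaptor STING (probe set 10458314), stood at 6.16 and 5.93, a difference of -0.24. The latter values were 0.44 and 0.20 above the detection limit, close enough that a difference may be understated. Zbp1, the sensor of Z-form nucleic acid (probe set 10490150), stood at 6.03 and 5.97, also near the limit, with a difference of -0.06. The sensor and the adaptor of the cGAS route thus had differences of opposite sign, both within the range of the receptor probe sets.

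Below the sensors, the mitochondrial adaptor had the same level in both arrays and the shared kinase was higher with celastrol. Mavs, the adaptor of RIG-I and MDA5 (probe set 10476276), stood at 9.82 in each array, with a difference of -0.004. Tbk1, the kinase that activates IRF3 (probe set 10372853), stood at 8.75 with DMSO and 9.22 with celastrol, a difference of 0.48 that ranked 1217 from the highest. For scale, the 761 genes with several detected probe sets gave differences that spread by a median of 0.10 and by up to 0.51 for 90% of them. The difference of Tbk1 was within that upper figure, that of Ddx58 was beyond it, and that of Dhx58 (0.52) only just beyond. With a lowess trend on mean level subtracted, Dhx58 (0.49) was within it and Tbk1 (0.54) beyond.

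Counted over the 9 detected genes, 6 were lower with celastrol and 3 higher, against 51.9% lower and 48.1% higher over all detected genes. The median difference was -0.06, against -0.01 over all detected genes. At least 1.5-fold lower was 1 gene, Ddx58, where 4.68% of all detected genes were, and 0 were at least 1.5-fold higher, where 6.19% were. No sensor gene reached 2-fold in either direction, a size reached by 0.662% of detected genes downward and 1.89% upward. At a log2 difference of at least 0.32, Ddx58 and Eif2ak2 were lower and Dhx58 and Tbk1 higher, with 16.0% and 14.8% of all detected genes past that size. Outside the range of the receptor probe sets were 3 of the 9, Ddx58, Dhx58 and Tbk1, and 21.7% of all detected genes.

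**Figure D2:**
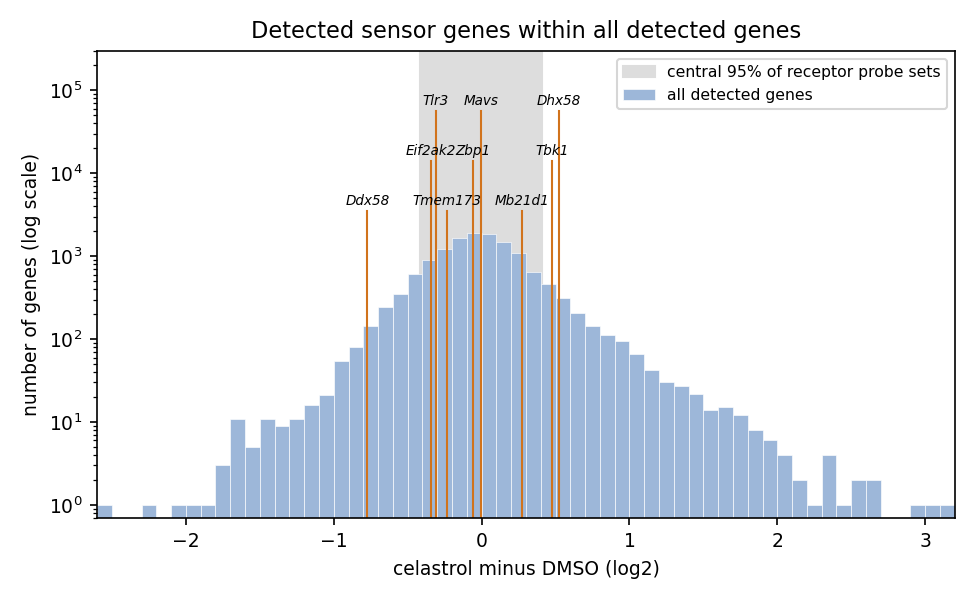
Number of detected genes (vertical axis, log scale) by the celastrol minus DMSO difference (horizontal axis, log2, bins of 0.1), with the 9 detected sensor genes as orange lines whose heights only separate the names. The grey band is the central 95% of the receptor probe sets (-0.42 to 0.41). Ddx58 at -0.77 lies to the left of the band, Tbk1 at 0.48 and Dhx58 at 0.52 to the right, and the other 6 lie within it.

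RIG-I and LGP2 belong to the large superfamily of DEAD-box and DEAH-box helicases, most of which act in splicing, ribosome assembly and translation. Of 51 genes whose symbols begin with Ddx or Dhx and a number, 47 were detected, and their median difference was -0.03. Ddx58 had the lowest difference of these 47 and Dhx58 the highest. Dhx58 also had the lowest level of the 47 in both arrays (5.86 and 6.39), near the detection limit. Next to Ddx58 stood Ddx46, a splicing helicase, at -0.69, and next to Dhx58 stood Dhx40 at 0.45. Of the 47 genes, 2 were at least 1.5-fold lower, Ddx58 and Ddx46, and 0 at least 1.5-fold higher, beside 4.68% and 6.19% of all detected genes. This family was examined after the values of the sensor genes were known, and with a lowess trend on mean level subtracted Dhx58 came second from the top, after Dhx40 at 0.51.

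**Figure D3:**
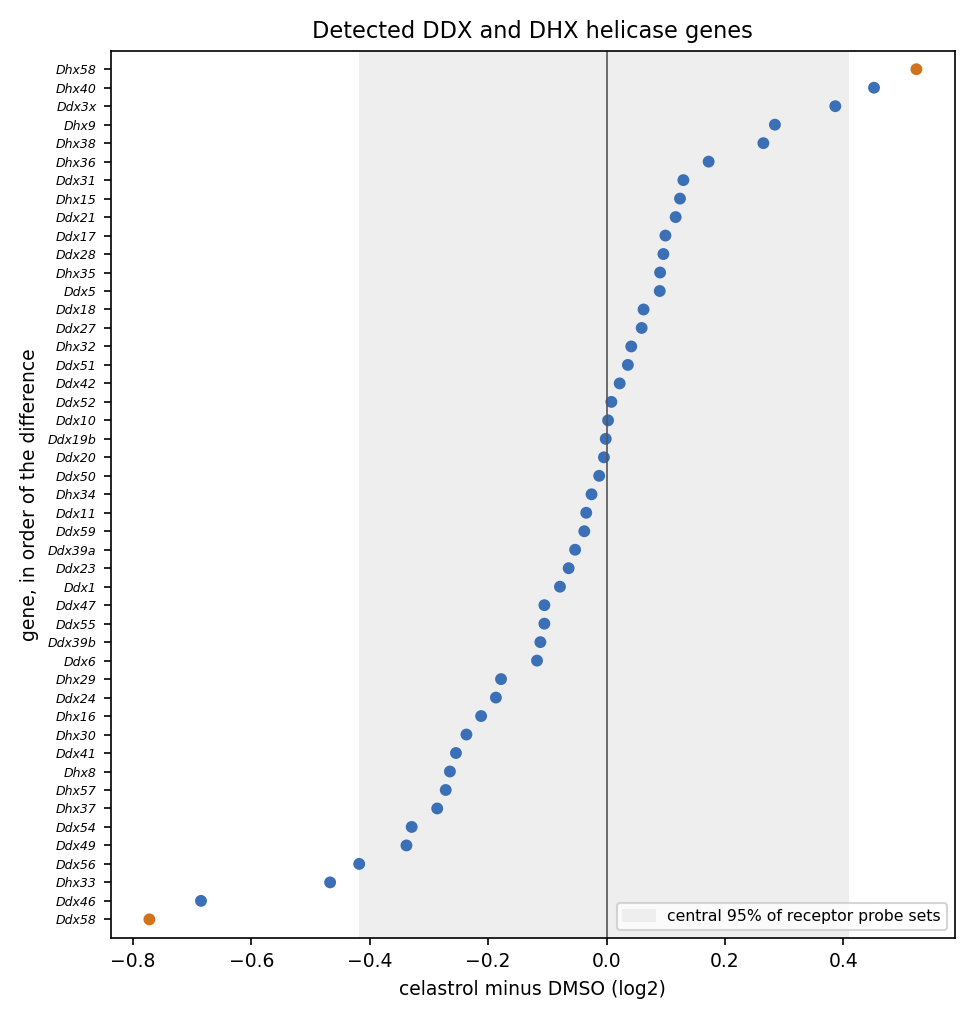
Celastrol minus DMSO difference (horizontal axis, log2) of the 47 detected DDX and DHX helicase genes (vertical axis, ordered by the difference), 1 array per condition. Ddx58 and Dhx58, in orange, are the bottom and the top point at -0.77 and 0.52, and the grey band is the central 95% of the receptor probe sets. The DMSO value of Dhx58 (5.86) lies near the detection limit.

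The relay that links the sensors to interferon transcription was measured with 17 of 19 listed genes, of which 16 were detected, 7 lower and 9 higher, with a median of 0.08, or 0.02 without the detection limit. Of these, 1 was at least 1.5-fold higher and 0 were lower by that size, beside 6.19% and 4.68% of all detected genes. Azi2, an adaptor of TBK1 also called NAP1, had values of 8.59 (DMSO) and 9.74 (celastrol), 2.23-fold higher. Traf6, a ubiquitin ligase of Toll-like and IL1 receptor signalling, differed by 0.45. At the other end, Rnf135, a ubiquitin ligase that activates RIG-I, and Zdhhc1, a palmitoyltransferase family protein that acts with STING, were each 1.43-fold lower. Beyond the naming rule, and chosen after their values were seen, the other TBK1 adaptors Tank and Tbkbp1 differed by 0.32 and 0.17, the related kinase Ikbke by -0.40, and the substrate Irf3 by 0.02, while Irf7 was not detected.

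Among 16 detected negative regulators, 10 were lower and 6 higher, with a median of -0.04. Tnfaip3, the deubiquitinase A20 and a target of NF-kB, stood at 8.91 and 8.01, 1.87-fold lower, and Ube2l6, the conjugating enzyme for ISG15, was 1.54-fold lower. These were the 2 genes of that list at least 1.5-fold lower, and 0 were higher by that size. Over all detected genes the shares were 4.68% and 6.19%. With a lowess trend on mean level subtracted, Ube2l6 stood at -0.56 and was no longer past 1.5-fold, which left 1. Nlrc3, a NOD-like receptor family gene, differed by 0.50 and Tax1bp1, an A20 partner and autophagy receptor, by 0.47.

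Genes listed for clearing or altering nucleic acid before it reaches the sensors, not all of them nucleases, had a median of -0.30. Of the 11 detected, 6 were lower and 5 higher. The median is the value of Rnaseh2a, and the next gene above it, Rnaseh2b, differed by 0.04. Both were named after their values were seen. Samhd1, which hydrolyses deoxynucleotides, was 1.48-fold lower and Trex1, the cytosolic DNA exonuclease, 1.38-fold lower. Dnase1l1 was 1.67-fold higher, the only gene of the list past 1.5-fold, and Dnase2a, the lysosomal DNase, differed by 0.36. Of all detected genes, 6.19% were at least 1.5-fold higher and 4.68% lower by that size. Without the detection limit the median was -0.13.

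Other nucleic acid sensors and their cofactors gave a median of 0.09 over 22 detected genes, 9 lower and 13 higher, with 1 gene past 1.5-fold. Without the detection limit the median of that list was 0.002. The gene past 1.5-fold was Lrrfip1, a nucleic acid binding protein, 1.54-fold higher. By at least 1.5-fold, 6.19% of all detected genes were higher and 4.68% lower. Ddx3x, an RNA helicase, differed by 0.39, Dhx33 by -0.47 and Hmgb1, a chromatin protein, by -0.30. Of the 29 genes measured, 7 were not detected, named here after their values were seen: Aim2, Tlr7, Tlr8, Tlr13, Nlrp3, Ddx60 and Unc93b1.

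In the list around PKR and eIF2, the 12 detected genes had a median of -0.12, 8 lower and 4 higher. That list also holds the other eIF2 kinases and genes that act with all of them, and the part of PKR in the differences was not tested. At least 1.5-fold higher were 2, and 0 were lower by that size, beside 6.19% and 4.68% of all detected genes. Ppp1r15a, the stress-induced eIF2 phosphatase subunit GADD34, had values of 7.36 (DMSO) and 9.43 (celastrol), 4.19-fold higher, and Atf4, the transcription factor translated when eIF2 is phosphorylated, was 1.53-fold higher. Eif2b1, a subunit of the exchange factor for eIF2, was 1.44-fold lower and Tarbp2, an RNA-binding inhibitor of PKR, 1.27-fold lower. The other eIF2 kinases, named after their values were seen, differed by -0.002 (Eif2ak1), -0.26 (Eif2ak3) and -0.13 (Eif2ak4), against -0.35 for Eif2ak2.

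Interferon-induced effectors had members in both directions, with 30 of 37 listed genes measured and 21 detected, 12 lower and 9 higher, and a median of -0.05. At least 1.5-fold lower were 3 of the 21 and at least 1.5-fold higher 1, where 4.68% and 6.19% of all detected genes were. At a log2 difference of at least 0.32 the counts were 8 lower and 2 higher, beside 16.0% and 14.8% of all detected genes. The chemokines Ccl5 (8.74 and 7.40, 2.52-fold) and Cxcl10 (9.08 and 8.01, 2.10-fold) were lowest, and both are also NF-kB targets. The third was Ifit3, 1.58-fold lower, which lies outside the naming rule and was named after its value was seen. Oas1a, counted as higher, passed the detection limit only with celastrol and was also named after its values were seen. Herc6, a ubiquitin ligase of the ISG15 system in mice, was 1.60-fold higher, and Irf9, the DNA-binding part of the interferon-responsive factor ISGF3, 1.33-fold higher.

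Interferons and their receptors had a median of -0.29 over 10 detected genes, 8 lower and 2 higher. Ifnlr1, counted as lower, passed the detection limit only with DMSO and was named after its values were seen. Il10rb, a receptor chain shared with type III interferon, was 1.63-fold lower, the only gene of the list past 1.5-fold. Of all detected genes, 4.68% were at least 1.5-fold lower and 6.19% higher. Ifnar2, a chain of the type I interferon receptor, was 1.43-fold lower. Ifna2 differed by 0.28, with values of 5.90 and 6.19 that the near-identical copies of interferon alpha genes leave uncertain, and Jak1 also differed by 0.28. Ifnb1, the interferon that the sensors induce first in fibroblasts, was not detected (4.93 with DMSO and 4.59 with celastrol), and was also named after its values were seen.

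Of 8 genes listed for the cell death route below ZBP1, 7 were measured, without Ripk1, and all 7 were detected. Of these, 5 were lower and 2 higher, with a median of -0.09. Mlkl, which encodes the protein that permeabilises membranes in necroptosis, had values of 9.74 (DMSO) and 10.75 (celastrol), 2.02-fold higher. It was the only gene of the list past 1.5-fold, beside 6.19% of all detected genes higher by that size and 4.68% lower. Cflar, the caspase-8 inhibitor FLIP, differed by 0.40, and Casp6 and Gsdmd by -0.37 and -0.14.

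**Figure D4:**
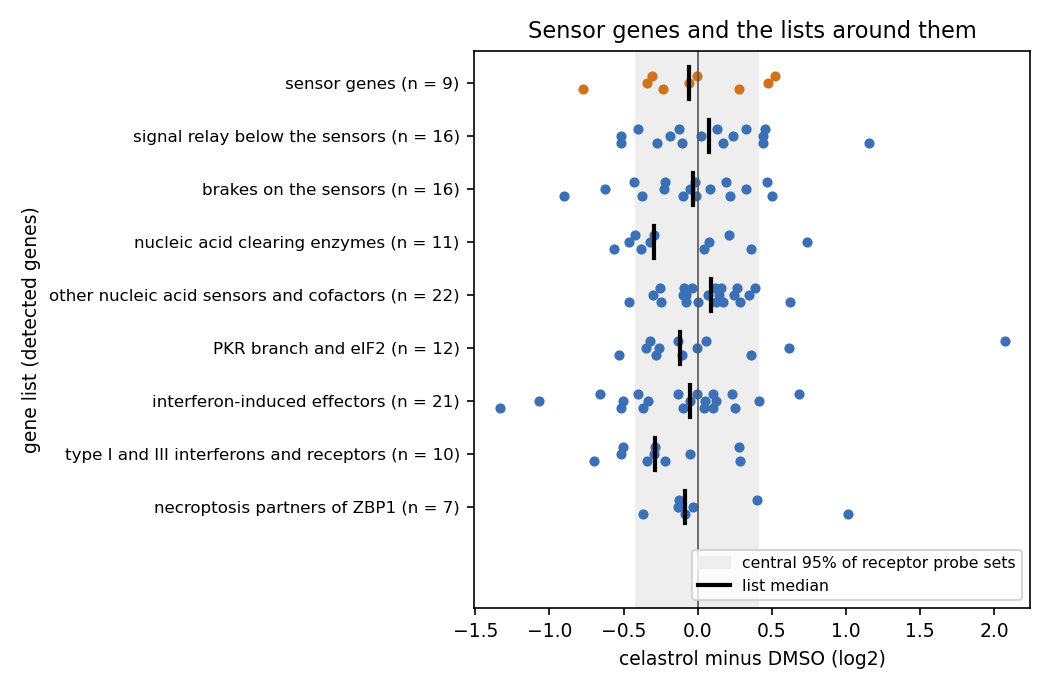
Celastrol minus DMSO difference (horizontal axis, log2) of every detected gene in the sensor set (orange) and in 8 lists around it (blue), with the list median as a black bar and the central 95% of the receptor probe sets in grey; points are spread vertically for visibility. Medians lie between -0.30 and 0.09, and the points farthest from 0 are Ppp1r15a at 2.07, Ccl5 at -1.34 and Azi2 at 1.15.

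Sensor transcripts are abundant in macrophages and dendritic cells, so markers of other cells were measured beside them. Fibroblast markers were present, with 9 of 10 detected, led by Vim (13.85 and 13.95) and Fn1 (13.42 and 13.47), followed by Col1a1 (12.16 and 11.69), although Lum was not detected. Of the 9, 6 were lower and 3 higher, with a median difference of -0.16, and the summed log2 level of the 10 was 102.6 with DMSO and 101.2 with celastrol. Of 14 macrophage and dendritic cell markers, 7 were detected, and Ptprc, which marks all leukocytes, was not (5.50 and 5.71), nor was Adgre1. Lum, Ptprc and Adgre1 were named after their values were seen. The summed log2 level of the 14 macrophage and dendritic cell markers was 79.4 with DMSO and 81.2 with celastrol. The 3 brightest were Cd68, 2.76-fold higher, Cd14, 1.63-fold higher, and Cx3cr1 at -0.18. The median level of these 14 was 5.60 with DMSO and 5.54 with celastrol, and of the 7 detected 3 were lower and 4 higher. Of these 7, Fcer1g, Siglech and Tyrobp passed the limit only in the array where they were higher, so their direction is tied to the limit. They were named after their values were seen. Endothelial markers were detected for 5 of 9 genes and epithelial markers for 6 of 8, with summed log2 levels of 52.0 and 52.7 and of 46.4 and 46.4. By the same limit 13899 of all 19938 genes were detected, so these counts alone do not show that such cells were present. Cdh5, Krt14 and Krt5 passed the limit only in the array where they were higher, and were named after their values were seen. No detected endothelial or epithelial marker reached 1.5-fold. Of the 7 detected macrophage and dendritic cell markers, 2 were at least 1.5-fold higher, Cd68 and Cd14. Of all detected genes, 6.19% were higher and 4.68% lower by that size. The brightest endothelial markers were Egfl7 (-0.17), Vwf (0.07) and Eng (0.12). The brightest epithelial markers were Krt8 (-0.04), Krt18 (0.01) and Cldn4 (-0.05). The part of these markers' cells in the sensor values was not tested, and a lower share of cells and less RNA per cell cannot be told apart in such cultures.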

How the data were processed

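The authors deposited log2 values from RMA (background correction, quantile normalization, summary per probe set), per the submitters' processing notes. RMA's version and settings were not given in the labels used. Base 2 was inferred from the values (2.73 to 14.5, medians 6.33 and 6.35). Of 35556 probe sets, GEO's platform annotation named 1 gene for 21789, several for 1621 and none for 12146, and only the first entered. Names of 21698 were updated through Entrez identifiers in the GRCm38.p6 gene table. A gene was represented by its probe set with the highest mean of both arrays, and the difference is celastrol minus DMSO. The number of arrays limits the precision. The sensor genes, lists, limit and 1.5-fold threshold were chosen with earlier results of these data known. Named genes are all sensor genes, the 2 lowest and 2 highest detected genes of each of 8 lists (2 genes are in more than 1 list), and the 3 brightest markers of each of 4 marker lists; genes outside this rule are marked in the text. Alternatives were averaging all probe sets of a gene, quantile normalization, subtraction of the median or a lowess trend (fraction 0.3), other detection limits, and a 2-fold threshold and a lower one (0.32 on the log2 scale). The steps were run on simulated arrays with shifts larger than any sensor difference, in genes well above the limit. That run checks the code and not the values reported here. Software was Python 3.11.15 with statsmodels 0.14.6, pandas 2.3.3 and numpy 2.4.6.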

Additional observations from a re-analysis of the deposited data

How the results depend on the processing

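Each of the 10 sensor differences was recomputed under 3 alternatives (averaging probe sets could not move them, since each gene has 1) and each median under 6. All 30 recomputed differences and all 54 medians moved by less than 0.21, the standard deviation of the receptor probe sets, and none past 1.5-fold changed sign. Averaging probe sets moved no median, and most listed genes have 1 probe set, so its part in the 54 says little. Subtracting the median (-0.01) shifted every difference by the same amount, and RMA had already applied quantile normalization. Small moves under those 2 alternatives were therefore set in advance, and none of the alternatives measures variation between cultures. Ddx58 ran from -0.77 to -0.72, Dhx58 from 0.49 to 0.54 and Tbk1 from 0.48 to 0.54, and the median of the sensor genes from -0.10 to -0.004. No median of the sensor genes or of the 8 lists changed sign under any of these alternatives. Small differences of Ifih1 (-0.11 to 0.003) and Mavs (-0.004 to 0.04) changed sign. The number of sensor genes at least as far as the threshold changed with the threshold by construction. At 2-fold it was 0 lower, and at a log2 difference of 0.32 it was 2 lower and 2 higher, against 1 lower and 0 higher at 1.5-fold. For the 8 lists, 107 of 128 recomputed counts stayed within 1.5 times. Of the others, all came from the 2 other thresholds except the count of negative regulators lower under the lowess trend. Most list counts changed at the threshold of 0.32. No paired analysis was possible because each group has 1 array. Values near the detection limit (Dhx58, Tmem173, Zbp1) are limited by signal over background.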

Other observations

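The Toll-like receptors, examined after the values were known, were detected for 6 of 10 genes. Tlr2, a receptor for bacterial lipopeptides, stood at -1.001 on the log2 scale and Tlr4, the receptor for lipopolysaccharide, was 1.61-fold higher (0.68). Tlr1 stood at -0.35, Tlr3 at -0.31, Tlr12 at -0.03 and Tlr9 at 0.07, so Tlr3 lay between the 2 surface receptors that differed most.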
